A study of Mus musculus with 8 samples.

Results

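The non-fibrillar collagens are the collagen chains other than those that form striated fibrils. They were taken from the count table as every gene whose symbol is Col, a number, the letter a and a number, leaving out the 10 fibrillar chain genes Col1a1, Col1a2, Col2a1, Col3a1, Col5a1, Col5a2, Col5a3, Col11a1, Col24a1 and Col27a1. This gave 34 of the 50578 genes listed. Col11a2 is among them by this rule, although by its structure it is a fibrillar chain. RNA was sequenced from wild-type mouse embryonic fibroblasts (MEFs), untreated or given a small molecule, to ask which molecules move fibroblasts towards a hepatic progenitor-like state. There were 4 groups of 2 libraries each. The untreated MEFs were the control. The other groups received carbidopa (an inhibitor of aromatic-L-amino-acid decarboxylase), LY-364947 (an inhibitor of the TGF-beta type I receptor, written LY-364747 in the labels) or CHIR-99021 (an inhibitor of the kinase GSK3), each at 10 µM. MEFs were grown from embryos of C57BL/6J mice with head, limbs and internal organs removed, used at passage 3 to 5 and left 2 h to attach, with medium changed every 3 days under treatment. Such cultures are mixed primary cells, and the time of treatment before RNA-seq was not given in the sources used here. The labels call the treated cells hepatic-like. The 8 hepatocyte markers examined (Alb, Afp, Ttr, Hnf4a, Apoa1, Cps1, Fga and Tat) had too few reads to be tested in any group, with a summed level of 0.297 to 0.322 CPM in MEF and 0.611 to 1.18 CPM in the treated libraries, and Alb had at most 10 reads in a library. CPM is a gene's reads divided by the TMM-scaled total of its library and multiplied by 1000000.

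Collagen chains wind around each other in a triple helix. Where fibrillar collagens pack into ropes, the others make sheets, beaded filaments and anchors or sit on the surface of fibrils. Type IV collagen is the network of basement membranes, type VI forms beaded filaments around cells, type VIII forms a hexagonal lattice, and the FACITs (fibril-associated collagens with interrupted triple helices, such as types XII and XIV) decorate fibrils. Types XIII, XVII, XXIII and XXV are transmembrane collagens, and types XV and XVIII are multiplexins, which carry endostatin-like domains. Fibroblasts make much of the type VI, XII and XIV collagen of connective tissue.

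The genes for type IV chains lie in head-to-head pairs, and stretches before the starts of some members are shown here because the pairs are compared in the results. Of the 34 members, 28 had a RefSeq window (GRCm38.p6, 250 bases before to 50 after the start). Col4a1 on the minus strand starts at chr8 position 11312826 and Col4a2 on the plus strand at 11312805, so that the annotated transcripts overlap by 22 bases. RefSeq starts of Col4a6 and Col4a5 on chromosome X lie 1343 bases apart. Gene positions in the results are from GENCODE and can begin elsewhere. Col4a5 starts at 141475419 in RefSeq and 141475385 in GENCODE, and Col11a2 at 34039138 in RefSeq and 34039437 in GENCODE. Capitals mark letters of 7 motifs searched on both strands: the TATA box as TATAAA, the CCAAT box by that name, the GC box as GGGCGG, the AP-1 site as TGANTCA, the TEAD site as CATTCC, the Smad core as CAGAC and the TCF/LEF site as ATCAAAG. GC boxes can overlap each other, as in Col8a2. Only matches that lie whole within a printed stretch are in capitals. The CATTCC match of Col4a6 begins at base −5 and runs past the start, so it is not marked. The pair Col4a1 and Col4a2 is shown by a stretch just before the Col4a2 start and another across that start that ends 1 base before the Col4a1 start, Col4a6 as a chain not called against MEF, Col8a2 and Col28a1 for their large falls, and Col11a2 as the member that rose. All run 5′ to 3′ on the strand of the named gene.
Col4a2, bases −48 to −19 from its start, chr8:11312757-11312786, plus strand: CCGCCCgaggagctccCCAATttgttggcg
Col4a2, bases −9 to 21, chr8:11312796-11312825, plus strand: cccctcggcagtgcgcGGGCGGcgtctcca
Col4a6, 250 bases before its start, chrX:141474077-141474326, minus strand: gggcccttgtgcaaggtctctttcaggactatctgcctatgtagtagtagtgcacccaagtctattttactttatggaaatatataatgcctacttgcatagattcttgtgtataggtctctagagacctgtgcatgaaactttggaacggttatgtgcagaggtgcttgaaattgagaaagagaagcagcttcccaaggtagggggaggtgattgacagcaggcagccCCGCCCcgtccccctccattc
Col8a2, 250 bases before its start, chr4:126286544-126286793, plus strand: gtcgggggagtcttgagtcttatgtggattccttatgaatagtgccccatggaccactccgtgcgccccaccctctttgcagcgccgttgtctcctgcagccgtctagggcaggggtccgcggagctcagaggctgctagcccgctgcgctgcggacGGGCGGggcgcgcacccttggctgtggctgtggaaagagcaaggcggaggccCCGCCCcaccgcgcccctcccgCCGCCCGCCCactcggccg
Col11a2, 250 bases before its start, chr17:34038888-34039137, plus strand: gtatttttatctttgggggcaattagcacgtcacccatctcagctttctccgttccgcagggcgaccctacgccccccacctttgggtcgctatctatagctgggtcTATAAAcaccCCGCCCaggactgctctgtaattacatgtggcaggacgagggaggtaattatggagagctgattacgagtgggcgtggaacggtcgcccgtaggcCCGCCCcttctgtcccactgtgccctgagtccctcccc
Col28a1, 250 bases before its start, chr6:8192618-8192867, minus strand: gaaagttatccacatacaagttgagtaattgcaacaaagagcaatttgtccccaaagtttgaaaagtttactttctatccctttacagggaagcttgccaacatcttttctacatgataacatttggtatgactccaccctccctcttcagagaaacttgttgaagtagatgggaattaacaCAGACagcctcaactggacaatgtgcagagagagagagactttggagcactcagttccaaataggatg

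A GC box was found in 17 of the 28 members with a window (60.7%) and in 35.7% of all 32851 windows, and the Smad letters in 15 members (53.6%) and 49.6% of windows. CCAAT was present in 10 members (35.7% against 37.4%), TATAAA in 4 (14.3% against 13.6%), CATTCC in 4 (14.3% against 14.7%), TGANTCA in 1 (3.57% against 7.81%) and ATCAAAG in 1 (3.57% against 3.73%). The windows of Col4a1 and Col4a2 were 74.0% and 73.7% G and C, that of Col8a2 was 71.7% and that of Col28a1 41.7%, against a median of 52.7% over all windows. Members were counted per gene, by a match in either window for Col6a2, Col9a1 and Col18a1, and the background per window. This can raise the member shares. These matches are descriptions of letters and were not related to binding.

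Most non-fibrillar collagen transcripts that could be tested were lower after treatment with each compound. Of 26 members tested, 16 fell and 1 rose under carbidopa, 16 fell and 1 rose under LY-364947, and 16 fell and 1 rose under CHIR-99021 (edgeR's quasi-likelihood test, Benjamini-Hochberg adjusted p under 0.05). Among all 15154 genes tested, 19.7% fell and 18.0% rose under carbidopa, 17.2% and 13.7% under LY-364947, and 20.1% and 18.7% under CHIR-99021. Over the members the log2 fold change had a median of −1.62 under carbidopa, −1.25 under LY-364947 and −1.47 under CHIR-99021, against 0.04, 0.03 and 0.04 over all genes. The number that fell in all 3 comparisons was 15, and 8 members passed the test in none of them. All 3 comparisons use the same MEF libraries. The 8 untested members had at most 10 reads in any library, and the filter can keep a gene through the group where it is high, so these counts describe the 26 and not all 34. Among the members, Col8a2, Col15a1 and Col25a1 passed it through MEF alone, and Col9a3, Col11a2 and Col22a1 through treated libraries alone. A gene kept this way could hardly be called in the other direction. Libraries held 15039566 to 20504338 reads. The labels do not say that the 2 libraries of a group came from separate cultures, so p-values measure the spread between these samples. In bulk RNA, fewer cells of a type and less RNA per cell cannot be told apart.

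**Figure D1:**
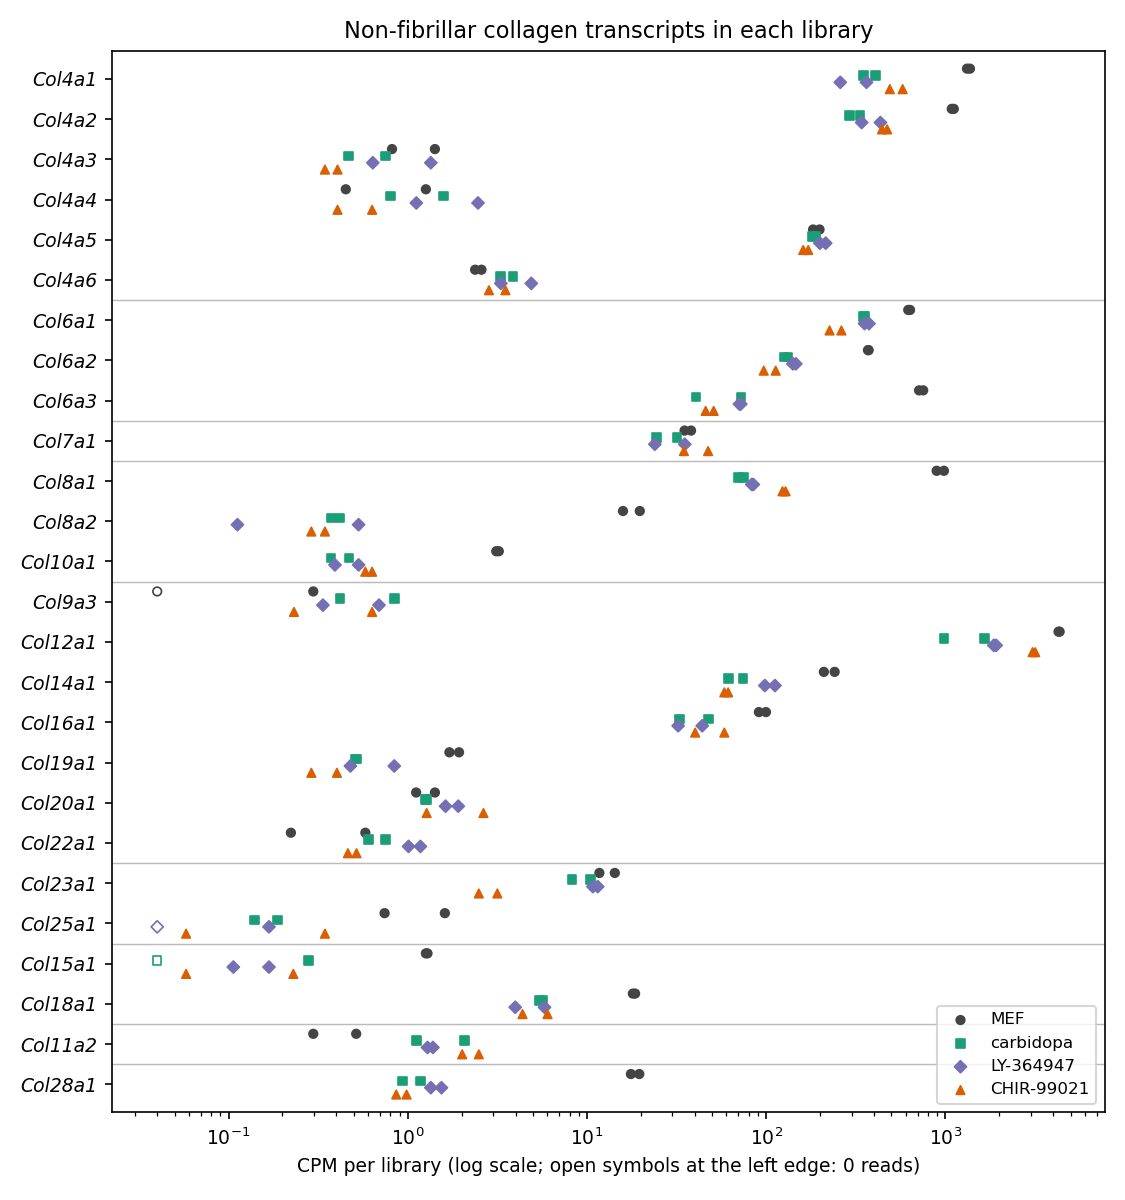
CPM in each library (log axis) for the 26 tested members, ordered by structural class with grey lines between classes; each symbol is 1 library and open symbols at the left edge had 0 reads. MEF libraries lie to the right for most rows, whereas groups lie together for Col4a5, Col7a1 and Col20a1. MEF lies to the left for Col11a2 and, by less, for Col4a6.

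Non-fibrillar collagens took 0.900 and 0.886% of all reads in MEF, 0.283 and 0.343% under carbidopa, 0.382 and 0.379% under LY-364947 and 0.508 and 0.517% under CHIR-99021. The MEF share was above that of every treated library. As a share of the reads of all collagen genes they were 43.6 and 43.6% in MEF, 43.9 and 49.9% under carbidopa, 41.6 and 43.5% under LY-364947 and 54.1 and 55.3% under CHIR-99021, and the CHIR-99021 libraries were the highest. Col12a1 alone gave 42.6 and 43.1% of non-fibrillar collagen reads in MEF, 36.8 and 50.4% under carbidopa, 50.2 and 53.1% under LY-364947 and 62.5 and 63.0% under CHIR-99021. Shares of reads favour long genes, so levels of different genes were compared per length, as RPKM (CPM per kilobase of transcript). In MEF the order was Col12a1 at 375 ± 3.77 RPKM (SD, n = 2), Col4a1 at 204 ± 5.48, Col8a1 at 184 ± 12.1, Col4a2 at 171 ± 3.12 and Col6a1 at 153 ± 2.52. The libraries of neighbouring genes did not overlap, although Col8a1 at 175 and 192 RPKM lay close to Col4a2 at 173 and 168 RPKM. Under CHIR-99021 the order was Col12a1 at 271 ± 6.51 RPKM, Col4a1 at 80.7 ± 9.36, Col4a2 at 71.1 ± 3.31, Col6a1 at 59.7 ± 6.38 and Col6a2 at 26.6 ± 2.88. Here Col4a1 at 74.1 and 87.4 RPKM lay next to Col4a2 at 68.8 and 73.4 RPKM, and the libraries of Col6a2 at 28.6 and 24.6 RPKM overlapped those of Col4a5 at 26.3 and 24.7 RPKM and Col8a1 at 24.2 and 25.1 RPKM, so that the fifth place was not resolved.

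**Figure D2:**
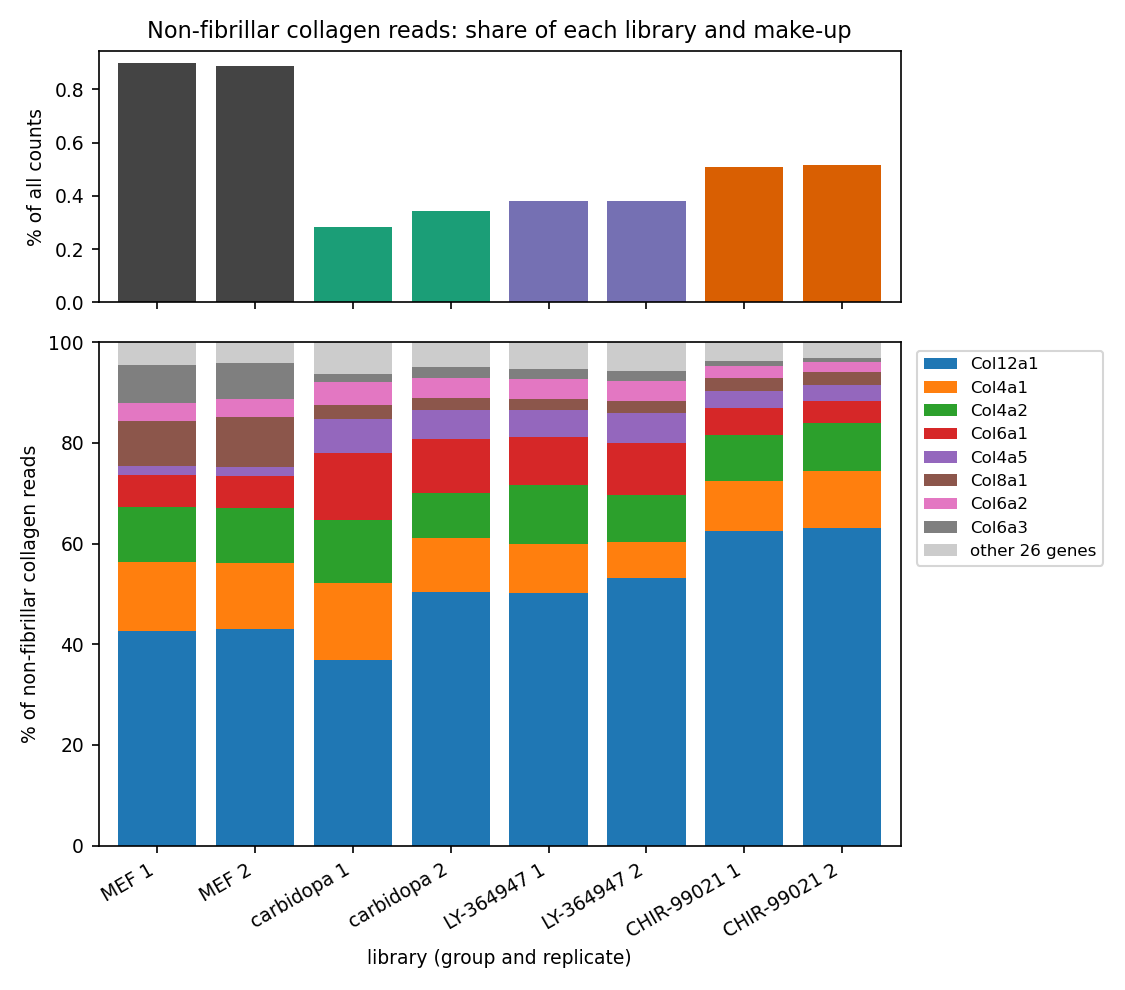
Upper bars give the percentage of all reads of a library that fell on non-fibrillar collagens, and lower bars split those reads (percent) among the 8 members with the most and the other 26 genes, for each of the 8 libraries. The upper bars are tallest in MEF and the Col12a1 segment is tallest under CHIR-99021.

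The type IV chains did not all change alike. Col4a1 and Col4a2, the chains of the common basement membrane heterotrimer, fell with each compound, whereas Col4a5 and Col4a6 were called in no comparison with MEF by edgeR's test on all libraries. Col4a1 (ENSMUSG00000031502, chr8:11198423-11312826, minus strand) had 1373 and 1322 CPM in MEF, 407 and 350.3 CPM under carbidopa, 363 and 259 CPM under LY-364947 and 490.3 and 578 CPM under CHIR-99021. Every treated library was below both MEF libraries. Log2 fold changes of Col4a1 by edgeR's quasi-likelihood test were −1.83 ± 0.16 under carbidopa (adjusted p = 1.1e-05), −2.11 ± 0.16 under LY-364947 (adjusted p = 4.5e-06) and −1.33 ± 0.16 under CHIR-99021 (adjusted p = 9.8e-05). Col4a2 (ENSMUSG00000031503, chr8:11312805-11449287, plus strand) was at 1115 and 1087 CPM in MEF, 333 and 292 CPM under carbidopa, 434 and 342 CPM under LY-364947 and 444 and 474 CPM under CHIR-99021. Its treated libraries also lay below MEF without overlap. For Col4a2 edgeR's test gave −1.82 ± 0.13 under carbidopa (adjusted p = 2.6e-06), −1.50 ± 0.13 under LY-364947 (adjusted p = 9.7e-06) and −1.26 ± 0.13 under CHIR-99021 (adjusted p = 3.1e-05). Because the exons of the pair overlap on opposite strands by 22 bases, and the strand setting of the counting was not given in the sources used here, reads there could be assigned to either gene.

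Col4a5 (ENSMUSG00000031274, chrX:141475385-141689234, plus strand), a chain of the minor type IV networks and the gene of X-linked Alport syndrome, was at 183 and 199 CPM in MEF, 182 and 190.3 CPM under carbidopa, 199.5 and 215 CPM under LY-364947 and 172 and 161 CPM under CHIR-99021. These values overlapped or lay close together in the 4 groups. Its log2 differences from MEF were −0.04 (95% interval −0.25 to 0.18) under carbidopa, 0.12 (95% interval −0.10 to 0.34) under LY-364947 and −0.20 (95% interval −0.42 to 0.02) under CHIR-99021, none of which passed after adjustment, although the value under CHIR-99021 passed when the compared groups alone were fitted and without either carbidopa library. Col4a6, its head-to-head neighbour, had 2.38 and 2.58 CPM in MEF, 3.29 and 3.87 CPM under carbidopa, 3.31 and 4.89 CPM under LY-364947 and 3.51 and 2.84 CPM under CHIR-99021, with log2 differences of 0.53 (95% interval −0.07 to 1.13) under carbidopa, 0.73 (95% interval 0.13 to 1.32) under LY-364947 and 0.35 (95% interval −0.26 to 0.97) under CHIR-99021. None was called, although the value under LY-364947 passed without the filter on low counts, in a fit of the compared groups, and without either carbidopa library or LY-364947 replicate 1 (adjusted p = 0.038 to 0.0466, edgeR). Every treated library of Col4a6 lay above both MEF libraries, which was not so for Col4a5. Col4a3 and Col4a4, the remaining chains, had few reads. Col4a3 had 11 and 22 reads in MEF, 16 and 10 under carbidopa, 24 and 12 under LY-364947 and 6 and 7 under CHIR-99021. Col4a4 had 17 and 7 reads in MEF, 17 and 34 under carbidopa, 44 and 21 under LY-364947 and 11 and 7 under CHIR-99021. Neither passed the test, although the value of Col4a3 under CHIR-99021 did so with RLE size factors, without the filter on low counts, in a fit of the compared groups and without either carbidopa library. Of the exon bases of Col4a3, 5.65% are shared with the opposite-strand gene C430014B12Rik.

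Ratios within a library do not depend on library size. Per length, Col4a2 over Col4a1 was 0.833 and 0.843 in MEF, 0.839 and 0.855 under carbidopa, 1.23 and 1.35 under LY-364947 and 0.928 and 0.841 under CHIR-99021. The LY-364947 libraries were the highest and the other groups lay between 0.833 and 0.928. Col4a5 over Col4a1 was 0.135 and 0.152 in MEF, 0.453 and 0.550 under carbidopa, 0.556 and 0.839 under LY-364947 and 0.355 and 0.282 under CHIR-99021, above MEF in all 6 treated libraries.

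**Figure D3:**
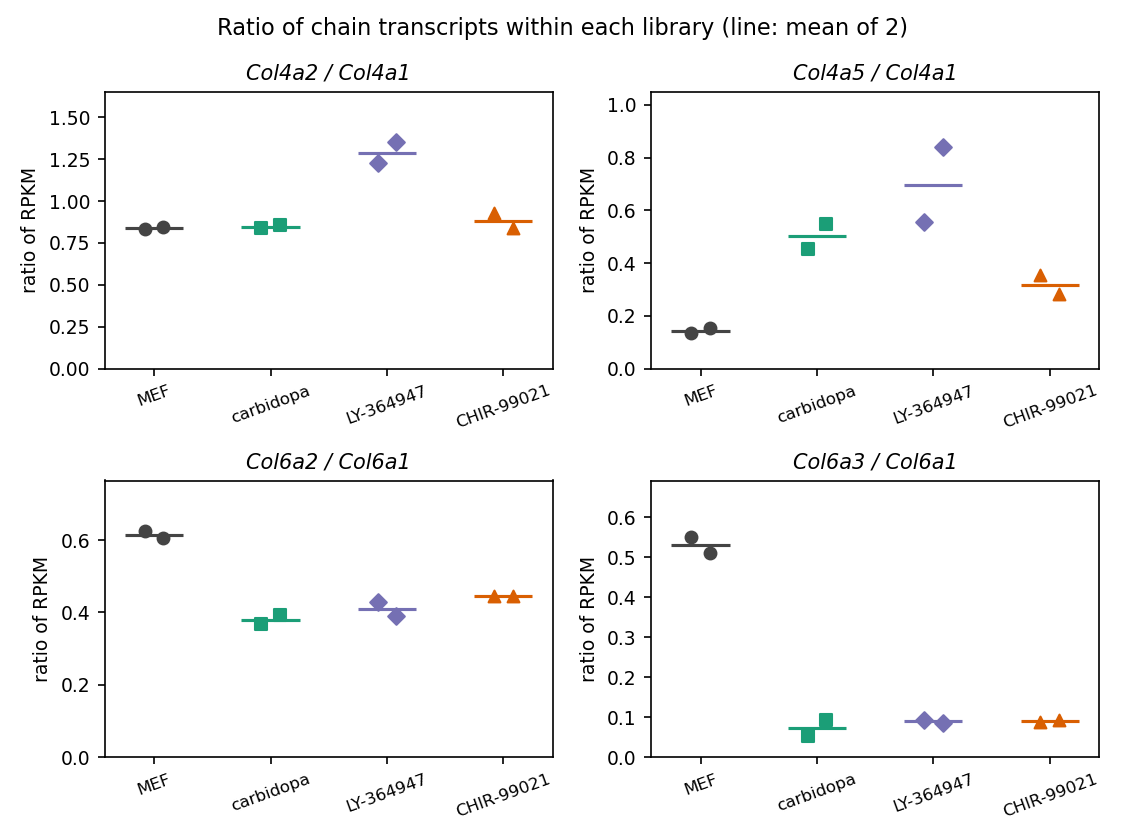
Ratio of RPKM between chains of the same collagen type in each library (points) and the mean of 2 (lines), on axes from 0, for the 4 groups. Col4a2 to Col4a1 is highest under LY-364947, Col4a5 to Col4a1 is lowest in MEF, and both ratios of type VI chains are highest in MEF.

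All 3 tested chains of type VI collagen fell with each compound, and Col6a3 fell the most. Col6a1 (ENSMUSG00000001119, chr10:76708792-76726168, minus strand) was at 621 and 636 CPM in MEF, 356 and 350.0 CPM under carbidopa, 354 and 375 CPM under LY-364947 and 263 and 226 CPM under CHIR-99021. The treated groups were all below MEF, under CHIR-99021 the lowest. edgeR's test gave log2 fold changes for Col6a1 of −0.83 ± 0.10 under carbidopa (adjusted p = 1.3e-04), −0.78 ± 0.10 under LY-364947 (adjusted p = 2.1e-04) and −1.36 ± 0.10 under CHIR-99021 (adjusted p = 4.0e-06). Col6a2 (ENSMUSG00000020241, chr10:76595762-76623630, minus strand) was at 373 and 370.3 CPM in MEF, 126 and 133 CPM under carbidopa, 147 and 141 CPM under LY-364947 and 113 and 97.0 CPM under CHIR-99021. This chain followed the same order of MEF above treated libraries, at −1.53 ± 0.10 under carbidopa (adjusted p = 1.9e-06), −1.37 ± 0.10 under LY-364947 (adjusted p = 4.1e-06) and −1.82 ± 0.11 under CHIR-99021 (adjusted p = 5.5e-07) by edgeR's test. Col6a3 (ENSMUSG00000048126, chr1:90765923-90843971, minus strand) was at 753 and 714 CPM in MEF, 40.7 and 72.2 CPM under carbidopa, 72.2 and 71.0 CPM under LY-364947 and 51.0 and 46.0 CPM under CHIR-99021. The largest treated value, 72.2 CPM, was far below the MEF values, and on the log2 scale the carbidopa libraries differed from each other more than the other pairs did. By edgeR's test Col6a3 changed by −3.70 ± 0.22 under carbidopa (adjusted p = 7.8e-07), −3.36 ± 0.22 under LY-364947 (adjusted p = 1.4e-06) and −3.92 ± 0.23 under CHIR-99021 (adjusted p = 5.3e-07). Within libraries, the ratio of Col6a3 to Col6a1 per length was 0.552 and 0.512 in MEF, 0.0521 and 0.0940 under carbidopa, 0.0928 and 0.0862 under LY-364947 and 0.0883 and 0.0926 under CHIR-99021, and that of Col6a2 to Col6a1 was 0.624 and 0.605 in MEF, 0.367 and 0.394 under carbidopa, 0.429 and 0.391 under LY-364947 and 0.446 and 0.445 under CHIR-99021. Col6a4, Col6a5 and Col6a6 encode alternative chains and could not be tested. Col6a5 had 1 and 1 reads in MEF, 10 and 10 under carbidopa, 4 and 10 under LY-364947 and 2 and 0 under CHIR-99021. From reads pooled over the libraries of a group, its level under carbidopa was 6.78 times that of MEF (95% interval 1.65 to 59.8) and under LY-364947 5.54 times that of MEF (95% interval 1.27 to 50.2), where the exact interval covers counting error only. Col6a4 had 2 and 1 reads in MEF, 4 and 7 under carbidopa, 1 and 3 under LY-364947 and 2 and 1 under CHIR-99021. Its pooled level under carbidopa was 2.49 times that of MEF (95% interval 0.657 to 13.9), an interval that includes 1. Col6a6 had 2 and 0 reads in MEF, 1 and 1 under carbidopa, 2 and 3 under LY-364947 and 0 and 1 under CHIR-99021. Col6a5 and Col6a6 share 2.89% and 2.97% of their 75-base words, so that some reads could belong to either.

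The short-chain network collagens all fell, and Col8a2, which passed the filter through MEF alone, had the largest fall of the members with each compound. Col8a1 (ENSMUSG00000068196, chr16:57624258-57754737, minus strand), a chain of the type VIII lattice made by vascular and mesenchymal cells, was at 895 and 982 CPM in MEF, 70.3 and 74.9 CPM under carbidopa, 83.1 and 84.9 CPM under LY-364947 and 123 and 128 CPM under CHIR-99021. The treated groups did not overlap MEF, and CHIR-99021 was above both other compounds. The log2 fold changes from edgeR's test were −3.69 ± 0.11 under carbidopa (adjusted p = 4.9e-09), −3.48 ± 0.11 under LY-364947 (adjusted p = 6.5e-09) and −2.90 ± 0.10 under CHIR-99021 (adjusted p = 2.4e-08). Col8a2 (ENSMUSG00000056174, chr4:126286793-126314330, plus strand), its partner chain, had 214 and 306 reads in MEF, 8 and 9 under carbidopa, 2 and 10 under LY-364947 and 6 and 5 under CHIR-99021. These few reads per treated library set the precision of its log2 fold changes, which were −5.46 ± 0.35 under carbidopa (adjusted p = 1.3e-06), −5.74 ± 0.37 under LY-364947 (adjusted p = 1.4e-06) and −5.78 ± 0.38 under CHIR-99021 (adjusted p = 1.3e-06) by edgeR's test. Col10a1, the collagen of hypertrophic cartilage, had 42 and 50 reads in MEF, 10 and 8 under carbidopa, 7 and 10 under LY-364947 and 11 and 10 under CHIR-99021, and it fell by edgeR's test with log2 fold changes of −2.89 ± 0.37 under carbidopa (adjusted p = 1.6e-04), −2.76 ± 0.37 under LY-364947 (adjusted p = 2.5e-04) and −2.37 ± 0.36 under CHIR-99021 (adjusted p = 5.0e-04). Col10a1 lies within the gene Nt5dc1 on the opposite strand. Col7a1, the anchoring fibril of skin, was at 38.1 and 35.1 CPM in MEF, 31.8 and 24.4 CPM under carbidopa, 23.9 and 35.2 CPM under LY-364947 and 47.5 and 34.8 CPM under CHIR-99021. Its differences from MEF were −0.38 (95% interval −0.84 to 0.08) under carbidopa, −0.31 (95% interval −0.77 to 0.16) under LY-364947 and 0.17 (95% interval −0.29 to 0.63) under CHIR-99021 and did not pass the test.

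Among the FACITs, 4 of 7 tested members fell under carbidopa, 4 under LY-364947 and 3 under CHIR-99021. Of all genes tested, 19.7% fell under carbidopa, 17.2% under LY-364947 and 20.1% under CHIR-99021. Col12a1 (ENSMUSG00000032332, chr9:79598991-79718831, minus strand), a FACIT of tendon, fascia and periosteum, was at 4284 and 4345 CPM in MEF, 982 and 1651 CPM under carbidopa, 1864 and 1922 CPM under LY-364947 and 3070.3 and 3176 CPM under CHIR-99021. The CHIR-99021 libraries lay between MEF and the other compounds, and the carbidopa pair differed by more than the other pairs. edgeR's test gave −1.71 ± 0.19 under carbidopa (adjusted p = 7.2e-05), −1.19 ± 0.19 under LY-364947 (adjusted p = 8.8e-04) and −0.47 ± 0.19 under CHIR-99021 (adjusted p = 0.0764). The CHIR-99021 value was not called here, but it passed with DESeq2, without the filter on low counts, in a fit of the compared groups alone, and without either carbidopa library, at −0.44 to −0.50. Col14a1 (ENSMUSG00000022371, chr15:55307750-55520803, plus strand), a FACIT that limits fibril growth, was at 241 and 210.0 CPM in MEF, 61.9 and 74.3 CPM under carbidopa, 112 and 98.4 CPM under LY-364947 and 58.4 and 61.4 CPM under CHIR-99021. MEF was highest, and LY-364947 was above the other compounds. Col14a1 changed by −1.73 ± 0.13 under carbidopa (adjusted p = 3.0e-06), −1.10 ± 0.12 under LY-364947 (adjusted p = 7.3e-05) and −1.91 ± 0.13 under CHIR-99021 (adjusted p = 1.5e-06) by edgeR's test. Col14a1 to Col12a1 per length was 0.114 and 0.0980 in MEF, 0.128 and 0.0912 under carbidopa, 0.122 and 0.104 under LY-364947 and 0.0386 and 0.0392 under CHIR-99021, so that the CHIR-99021 libraries were the lowest.

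Col16a1, another FACIT, was at 99.8 and 91.2 CPM in MEF, 47.7 and 33.0 CPM under carbidopa, 32.3 and 44.0 CPM under LY-364947 and 58.4 and 40.2 CPM under CHIR-99021 and changed by −1.24 ± 0.22 under carbidopa (adjusted p = 0.00139), −1.32 ± 0.22 under LY-364947 (adjusted p = 0.00103) and −0.95 ± 0.22 under CHIR-99021 (adjusted p = 0.0059) by edgeR's test. The fall under CHIR-99021 did not pass without CHIR-99021 replicate 2 (adjusted p = 0.0574, log2 fold change −0.70, edgeR). Col19a1 had 23 and 30 reads in MEF, 11 and 11 under carbidopa, 15 and 9 under LY-364947 and 7 and 5 under CHIR-99021, with −1.81 ± 0.42 under carbidopa (adjusted p = 0.00704), −1.46 ± 0.41 under LY-364947 (adjusted p = 0.0212) and −2.37 ± 0.46 under CHIR-99021 (adjusted p = 0.00241) by edgeR's test. The call under carbidopa was lost without MEF replicate 2, and that under LY-364947 with DESeq2 and without either MEF library or LY-364947 replicate 2. Col9a3, a chain of cartilage type IX collagen, had 4 and 0 reads in MEF, 18 and 9 under carbidopa, 6 and 13 under LY-364947 and 11 and 4 under CHIR-99021. Col20a1 had 15 and 22 reads in MEF, 27 and 27 under carbidopa, 29 and 36 under LY-364947 and 46 and 22 under CHIR-99021. The FACIT Col22a1 had 3 and 9 reads in MEF, 16 and 13 under carbidopa, 21 and 19 under LY-364947 and 9 and 8 under CHIR-99021. None of these 3 was called, but Col9a3 under carbidopa passed without the filter on low counts (adjusted p = 0.0394, edgeR) and Col22a1 under LY-364947 in a fit of the compared groups (adjusted p = 0.0368, edgeR). Col9a3 shares exon bases with Tcfl5 on the opposite strand and Col20a1 with BX649560.1 on the same strand. The untested Col9a1 had 1 and 0 reads in MEF, 0 and 0 under carbidopa, 1 and 0 under LY-364947 and 0 and 2 under CHIR-99021. Its partner chain Col9a2 had 1 and 1 reads in MEF, 4 and 2 under carbidopa, 1 and 1 under LY-364947 and 2 and 2 under CHIR-99021.

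Of the transmembrane collagens, Col25a1 fell with each compound and Col23a1 under CHIR-99021. Col25a1 passed the filter through its MEF reads alone. Col23a1 (ENSMUSG00000063564, chr11:51289920-51583918, plus strand) was at 11.7 and 14.3 CPM in MEF, 8.28 and 10.5 CPM under carbidopa, 11.5 and 10.8 CPM under LY-364947 and 3.16 and 2.49 CPM under CHIR-99021, and the CHIR-99021 libraries were below all others. By edgeR's test its log2 fold changes were −0.48 ± 0.18 under carbidopa (adjusted p = 0.0642), −0.23 ± 0.18 under LY-364947 (adjusted p = 0.388) and −2.20 ± 0.21 under CHIR-99021 (adjusted p = 2.0e-05), and the value under carbidopa passed without carbidopa replicate 2. Col25a1, known as a brain collagen, had 10 and 25 reads in MEF, 4 and 3 under carbidopa, 3 and 0 under LY-364947 and 6 and 1 under CHIR-99021. It fell by edgeR's test, at −2.81 ± 0.80 under carbidopa (adjusted p = 0.0196), −3.75 ± 0.93 under LY-364947 (adjusted p = 0.0113) and −2.52 ± 0.80 under CHIR-99021 (adjusted p = 0.0307), and under LY-364947, where both libraries had at most 3 reads, the level from pooled reads was 0.0678 times that of MEF (95% interval 0.0133 to 0.215). All 3 of its calls were lost without MEF replicate 2, which held more of its reads than replicate 1. The call under carbidopa was also lost without either carbidopa library, that under LY-364947 without LY-364947 replicate 2, and that under CHIR-99021 without either CHIR-99021 library and in DESeq2. Col13a1 had 1 and 0 reads in MEF, 1 and 1 under carbidopa, 0 and 0 under LY-364947 and 0 and 0 under CHIR-99021. Col17a1, the hemidesmosomal collagen of epithelia, had 0 and 1 reads in MEF, 3 and 3 under carbidopa, 2 and 2 under LY-364947 and 0 and 3 under CHIR-99021.

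Of the multiplexins, which sit at basement membranes, Col18a1 fell, as did Col15a1, which passed the filter through its MEF reads alone. Col18a1 (ENSMUSG00000001435, chr10:77052178-77166548, minus strand), the source of endostatin, was at 18.6 and 18.1 CPM in MEF, 5.69 and 5.41 CPM under carbidopa, 3.98 and 5.80 CPM under LY-364947 and 4.37 and 6.03 CPM under CHIR-99021. The treated libraries did not overlap MEF, and edgeR's test gave −1.72 ± 0.21 under carbidopa (adjusted p = 1.1e-04), −1.90 ± 0.21 under LY-364947 (adjusted p = 6.8e-05) and −1.81 ± 0.21 under CHIR-99021 (adjusted p = 8.6e-05). Col15a1 had 17 and 20 reads in MEF, 0 and 6 under carbidopa, 3 and 2 under LY-364947 and 4 and 1 under CHIR-99021. Its log2 fold changes by edgeR's test were −3.12 ± 0.80 under carbidopa (adjusted p = 0.0121), −3.16 ± 0.83 under LY-364947 (adjusted p = 0.0151) and −3.08 ± 0.83 under CHIR-99021 (adjusted p = 0.0144). From pooled reads its level under LY-364947 was 0.107 times that of MEF (95% interval 0.0328 to 0.273). Each of these Col15a1 calls was lost when either MEF library was left out, and those under LY-364947 and CHIR-99021 also without either library of the compound. Of the remaining members, Col28a1 (ENSMUSG00000068794, chr6:7997808-8192617, minus strand), known from peripheral nerve, had 237 and 304 reads in MEF, 25 and 20 under carbidopa, 24 and 29 under LY-364947 and 15 and 17 under CHIR-99021. Treated libraries lay well below MEF, and edgeR's test gave −4.13 ± 0.22 under carbidopa (adjusted p = 2.7e-07), −3.68 ± 0.21 under LY-364947 (adjusted p = 5.7e-07) and −4.32 ± 0.23 under CHIR-99021 (adjusted p = 2.6e-07). Col26a1 had 1 read in all libraries together. Col11a2 (ENSMUSG00000024330, chr17:34039437-34066685, plus strand) was the member that rose, with 4 and 8 reads in MEF, 44 and 24 under carbidopa, 23 and 26 under LY-364947 and 35 and 43 under CHIR-99021. The treated libraries did not overlap MEF. edgeR's test gave 1.93 ± 0.47 under carbidopa (adjusted p = 0.00982), 1.68 ± 0.49 under LY-364947 (adjusted p = 0.0251) and 2.43 ± 0.46 under CHIR-99021 (adjusted p = 0.00226). The rise under CHIR-99021 passed with each library left out in turn. The call under carbidopa was lost without MEF replicate 1 or carbidopa replicate 1, and the call under LY-364947 without any 1 of the 4 libraries of its comparison.

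**Figure D4:**
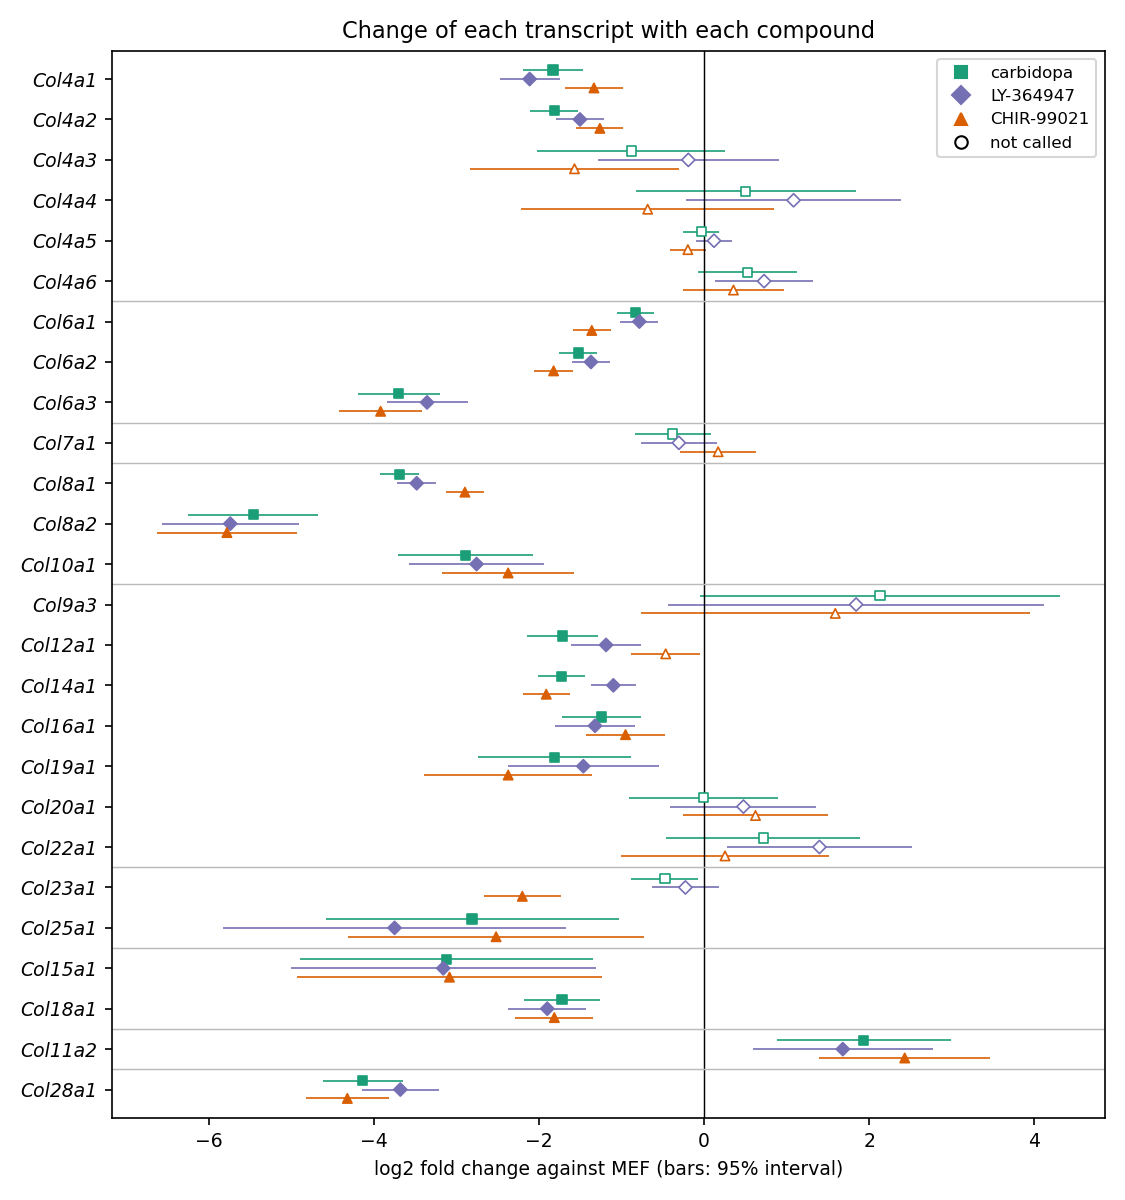
Log2 fold change against MEF for each tested member and compound, with 95% intervals; filled symbols passed the test at an adjusted p under 0.05 and open symbols did not, and grey lines part the classes. Most intervals lie left of 0, and those of Col4a5 lie near 0. To the right lie those of Col11a2 with each compound and those of Col4a6 and Col22a1 under LY-364947.

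Compounds were compared with each other at the same dose of 10 µM. For CHIR-99021 against carbidopa, 3 members were higher and 2 lower, against 6.62% and 8.08% of all genes. Col12a1 was higher by 1.25 ± 0.19 on the log2 scale (adjusted p = 0.00219, edgeR), Col8a1 by 0.79 ± 0.10 (adjusted p = 5.9e-04, edgeR) and Col4a2 by 0.55 ± 0.13 (adjusted p = 0.0167, edgeR). Col6a1 differed by −0.53 ± 0.10 (adjusted p = 0.00742, edgeR) and Col23a1 by −1.73 ± 0.21 (adjusted p = 5.3e-04, edgeR). Among members that did not pass, Col4a1 differed by 0.50 (95% interval 0.15 to 0.84), Col14a1 by −0.18 (95% interval −0.46 to 0.09) and Col6a3 by −0.22 (95% interval −0.68 to 0.24). The Col4a1 difference passed in DESeq2, without the filter on low counts, without carbidopa replicate 1 and without either LY-364947 library. Without carbidopa replicate 1, Col6a2, Col6a3 and Col7a1 passed as well, and Col7a1 also passed without the filter.

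For CHIR-99021 against LY-364947, 3 members were higher and 4 lower, against 6.45% and 7.69% of all genes. Higher were Col4a1 at 0.78 ± 0.16 (adjusted p = 0.00946, edgeR), Col12a1 at 0.72 ± 0.19 (adjusted p = 0.0302, edgeR) and Col8a1 at 0.58 ± 0.10 (adjusted p = 0.00358, edgeR). Lower were Col23a1 at −1.98 ± 0.21 (adjusted p = 2.5e-04, edgeR), Col14a1 at −0.81 ± 0.13 (adjusted p = 0.00218, edgeR), Col6a1 at −0.58 ± 0.10 (adjusted p = 0.00485, edgeR) and Col6a2 at −0.45 ± 0.10 (adjusted p = 0.0171, edgeR). Both comparisons use the same CHIR-99021 libraries. Of the 12 calls between compounds, 5 held under every alternative that tested them: Col8a1, Col12a1 and Col23a1 against carbidopa and Col14a1 and Col23a1 against LY-364947. Differences not called include Col4a2 at 0.24 (95% interval −0.04 to 0.52) and Col6a3 at −0.56 (95% interval −1.03 to −0.10). Col6a3 passed with DESeq2, without the filter, in a fit of the compared groups and without either carbidopa library. Col4a4, Col4a5, Col7a1 and Col16a1 were likewise not called here but passed under 1 or more of the alternatives.

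LY-364947 against carbidopa gave no member at an adjusted p under 0.05 in edgeR, where 0.0132% of all genes were higher and 0% lower. At an unadjusted p under 0.05, 3 of 26 members passed in edgeR and 3 in DESeq2, against 9.02% and 6.57% of all genes. After adjustment DESeq2 called Col14a1 as higher, against 0.0792% of all genes. Col14a1 differed by 0.63 (95% interval 0.35 to 0.90), Col12a1 by 0.52 (95% interval 0.10 to 0.95), Col4a2 by 0.31 (95% interval 0.03 to 0.59) and Col4a1 by −0.28 (95% interval −0.63 to 0.07). The carbidopa libraries differed from each other, with Col12a1 at 982 and 1651 CPM, and without carbidopa replicate 2 the members Col12a1, Col6a3 and Col14a1 were called, at 0.95, 0.81 and 0.76. In that setting 12.3% of all genes were higher, so that the share of members was not above the background.

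**Figure D5:**
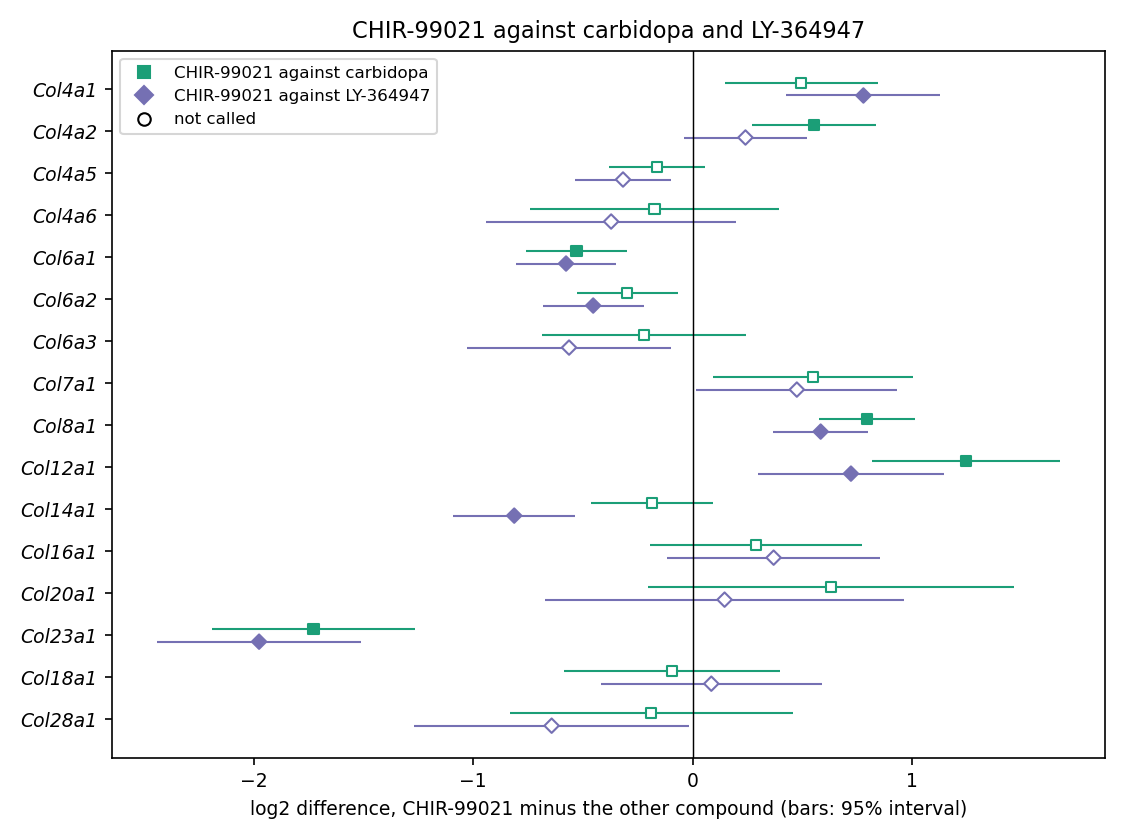
Log2 difference of CHIR-99021 from carbidopa and from LY-364947 for the 16 members with at least 10 reads in every library, with 95% intervals; filled symbols passed the test. Col12a1 and Col8a1 lie right of 0 and Col6a1 and Col23a1 left of 0 against both compounds.

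Genes that make, bind or cut collagens were counted from lists. These counts, and those of the fibrillar collagens below, stand beside the shares of all genes tested. Such shares were 19.7% that fell and 18.0% that rose under carbidopa, 17.2% and 13.7% under LY-364947, and 20.1% and 18.7% under CHIR-99021. Of 24 enzymes and chaperones of collagen synthesis tested, 2 rose and 12 fell under carbidopa, 2 rose and 14 fell under LY-364947 and 2 rose and 11 fell under CHIR-99021. The medians of their log2 fold changes were −0.30 under carbidopa, −0.38 under LY-364947 and −0.24 under CHIR-99021. P4ha3, a prolyl hydroxylase subunit, had log2 fold changes of −3.98 ± 0.13 under carbidopa (adjusted p = 7.7e-09), −3.69 ± 0.12 under LY-364947 (adjusted p = 1.3e-08) and −3.04 ± 0.12 under CHIR-99021 (adjusted p = 3.8e-08) by edgeR's test. Sparc, a collagen-binding matricellular protein, differed from MEF by −0.89 ± 0.09 under carbidopa (adjusted p = 3.6e-05), −0.84 ± 0.09 under LY-364947 (adjusted p = 5.5e-05) and −0.98 ± 0.09 under CHIR-99021 (adjusted p = 1.8e-05) in edgeR's test. For P3h2, a prolyl hydroxylase of type IV collagen, edgeR's test gave 1.32 ± 0.17 under carbidopa (adjusted p = 1.9e-04), 1.68 ± 0.17 under LY-364947 (adjusted p = 3.5e-05) and 0.44 ± 0.18 under CHIR-99021 (adjusted p = 0.0766). Of 21 basement membrane partners tested, 4 rose and 13 fell under carbidopa, 3 rose and 10 fell under LY-364947 and 3 rose and 11 fell under CHIR-99021. Their median log2 fold changes were −0.83 under carbidopa, −0.69 under LY-364947 and −0.54 under CHIR-99021. Their summed level did not fall in this way. It was 5136 and 5037 CPM in MEF, 5091 and 5981 under carbidopa, 5937 and 6347 under LY-364947 and 5939 and 6151 under CHIR-99021. Within this sum, the nidogen Nid1 was at 1356 and 1396 CPM in MEF and 2669 to 3564 CPM with treatment. Nid2, a nidogen that joins laminin to type IV collagen, had log2 fold changes of 1.10 ± 0.11 under carbidopa (adjusted p = 3.1e-05), 1.57 ± 0.11 under LY-364947 (adjusted p = 2.4e-06) and 0.53 ± 0.11 under CHIR-99021 (adjusted p = 0.00413) by edgeR's test. Frem1, an extracellular matrix protein of embryonic skin, differed from MEF by −3.95 ± 0.22 under carbidopa (adjusted p = 4.4e-07), −2.99 ± 0.21 under LY-364947 (adjusted p = 2.0e-06) and −4.40 ± 0.24 under CHIR-99021 (adjusted p = 3.1e-07) in edgeR's test. For Lama2, a laminin chain, edgeR's test gave −1.70 ± 0.17 under carbidopa (adjusted p = 3.0e-05), −1.39 ± 0.17 under LY-364947 (adjusted p = 1.3e-04) and −1.84 ± 0.17 under CHIR-99021 (adjusted p = 1.7e-05).

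Of 14 collagen receptors tested, 1 rose and 10 fell under carbidopa, 1 rose and 8 fell under LY-364947 and 1 rose and 11 fell under CHIR-99021. Median log2 fold changes were −1.07 under carbidopa, −0.91 under LY-364947 and −0.86 under CHIR-99021. Cspg4, a proteoglycan that binds type VI collagen, had log2 fold changes of −2.31 ± 0.19 under carbidopa (adjusted p = 6.3e-06), −2.07 ± 0.19 under LY-364947 (adjusted p = 1.4e-05) and −1.06 ± 0.18 under CHIR-99021 (adjusted p = 0.00107) by edgeR's test. Adgrg6, an adhesion receptor that binds type IV collagen, differed from MEF by −2.12 ± 0.17 under carbidopa (adjusted p = 5.4e-06), −1.59 ± 0.16 under LY-364947 (adjusted p = 4.0e-05) and −2.23 ± 0.17 under CHIR-99021 (adjusted p = 4.0e-06) in edgeR's test. For Lair1, a leukocyte collagen receptor, edgeR's test gave −3.45 ± 0.28 under carbidopa (adjusted p = 6.3e-06), −3.95 ± 0.30 under LY-364947 (adjusted p = 4.2e-06) and −5.07 ± 0.34 under CHIR-99021 (adjusted p = 1.7e-06). Of 9 collagen-degrading proteases tested, 2 rose and 6 fell under carbidopa, 1 rose and 6 fell under LY-364947 and 1 rose and 6 fell under CHIR-99021. As medians, log2 fold changes were −0.86 under carbidopa, −0.995 under LY-364947 and −0.95 under CHIR-99021. The summed level of the proteases changed less, at 4832 and 4848 CPM in MEF, 4825 and 4430 under carbidopa, 4096 and 4147 under LY-364947 and 3812 and 3879 under CHIR-99021. Mmp13, a collagenase, had log2 fold changes of −4.98 ± 0.21 under carbidopa (adjusted p = 7.2e-08), −5.15 ± 0.22 under LY-364947 (adjusted p = 7.6e-08) and −3.73 ± 0.20 under CHIR-99021 (adjusted p = 2.6e-07) by edgeR's test. Mmp3, a stromelysin, differed from MEF by −0.86 ± 0.13 under carbidopa (adjusted p = 5.7e-04), −1.19 ± 0.13 under LY-364947 (adjusted p = 7.3e-05) and −2.92 ± 0.15 under CHIR-99021 (adjusted p = 2.3e-07) in edgeR's test. For Mmp9, a gelatinase, edgeR's test gave 4.66 ± 0.25 under carbidopa (adjusted p = 3.1e-07), 4.26 ± 0.25 under LY-364947 (adjusted p = 7.2e-07) and 1.15 ± 0.32 under CHIR-99021 (adjusted p = 0.0174).

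Of the 9 fibrillar collagens tested, 0 rose and 8 fell under carbidopa, 0 rose and 8 fell under LY-364947 and 0 rose and 8 fell under CHIR-99021. Their median log2 fold changes were −1.98 under carbidopa, −1.50 under LY-364947 and −1.70 under CHIR-99021. Col1a1, the major chain of type I collagen, had log2 fold changes of −2.57 ± 0.13 under carbidopa (adjusted p = 2.5e-07), −1.03 ± 0.13 under LY-364947 (adjusted p = 1.3e-04) and −1.54 ± 0.13 under CHIR-99021 (adjusted p = 8.1e-06) by edgeR's test. Col1a2, its partner chain, differed from MEF by −1.98 ± 0.10 under carbidopa (adjusted p = 1.6e-07), −1.89 ± 0.10 under LY-364947 (adjusted p = 2.2e-07) and −2.30 ± 0.10 under CHIR-99021 (adjusted p = 6.0e-08) in edgeR's test. For Col11a1, a chain that nucleates thin fibrils, edgeR's test gave −4.31 ± 0.13 under carbidopa (adjusted p = 5.3e-09), −3.99 ± 0.12 under LY-364947 (adjusted p = 7.7e-09) and −3.29 ± 0.12 under CHIR-99021 (adjusted p = 2.6e-08).

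Most macrophage and fibroblast markers fell with each compound. Among all genes tested, 19.7% fell and 18.0% rose under carbidopa, 17.2% and 13.7% under LY-364947, and 20.1% and 18.7% under CHIR-99021. Marker lists with 2 to 5 genes tested are too small to be set against these shares. All 12 macrophage markers were tested, and 0 rose and 11 fell under carbidopa, 0 rose and 11 fell under LY-364947 and 0 rose and 12 fell under CHIR-99021. Their summed level was 1189 to 1223 CPM in MEF, 347 to 372 under carbidopa, 259 to 264 under LY-364947 and 88.2 to 95.8 under CHIR-99021. Of 12 fibroblast markers tested, 1 rose and 9 fell under carbidopa, 1 rose and 9 fell under LY-364947 and 1 rose and 9 fell under CHIR-99021, with a sum of 29065 to 29556 CPM in MEF, 6765 to 8653 under carbidopa, 8633 to 8764 under LY-364947 and 9526 to 9691 under CHIR-99021. Most of the fibroblast sum in MEF came from Fn1, at 19249 and 18667 CPM in MEF and 1954 to 4986 CPM with treatment. Endothelial markers summed to 24.6 to 26.8 CPM in MEF and 13.3 to 18.6 CPM with treatment, chondrocyte markers to 21.3 to 24.1 and 9.17 to 15.2 CPM, and skeletal muscle markers to 33.1 to 33.1 and 8.41 to 16.0 CPM. The chondrocyte and muscle sums came mostly from single genes, Sox9 and Des, which fell with each compound. The other chondrocyte marker tested, Hapln1, rose under carbidopa (log2 fold change 3.24 ± 1.05), and of the other 2 muscle markers tested Ttn rose under CHIR-99021 (1.03 ± 0.36). Schwann cell markers were at 13.9 to 16.4 CPM in MEF and 10.1 to 13.9 CPM with treatment, and epithelial markers at 2.45 to 2.82 and 2.02 to 7.83 CPM. The calls among 4 Schwann cell markers tested were 2 that fell under CHIR-99021, and among 5 epithelial markers 2 rose under carbidopa and 2 under CHIR-99021. Of 5 endothelial markers tested, 2 fell under carbidopa, 2 under LY-364947 and 3 under CHIR-99021. Single endothelial markers differed, and Pecam1 had at most 4 reads in a library. Vwf had 77 and 99 reads in MEF and 3 to 14 with treatment. Tek had 29 and 35 in MEF and 11 to 34 with treatment, and Egfl7 18 and 13 in MEF and 23 to 45 with treatment. The part of these cells in the collagen results was not tested.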

How the data were processed

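RNA-seq libraries, 2 per group, came from untreated MEFs and from cultures given carbidopa, LY-364947 or CHIR-99021. The authors mapped reads to mm10 with STAR 2.4.2a and assigned them to genes with featureCounts, and the deposited values are raw counts of reads per gene for 8 libraries (15039566 to 20504338 per library). The annotation release and strand setting were not given in the sources used here. The methods name a NEBNext kit and the labels a SMARTER kit. All 8 columns were used, with groups and replicate numbers from the labels.

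Members were chosen by gene symbol. The members and the lists were chosen with earlier results of these data known, and the hepatocyte list was added after the data were examined. Counts were analysed in R 4.3.3 with edgeR 4.0.16 (TMM, filterByExpr, quasi-likelihood test, 1 fit of all libraries with group as the only term, Benjamini-Hochberg adjustment over 15154 genes, threshold 0.05). The coefficient of biological variation was 11.0%, estimated over all groups together. Between the 2 libraries of a group, chi-square per degree of freedom was 34.6 for carbidopa. It was 4.31 for MEF, 7.25 for LY-364947 and 9.21 for CHIR-99021. The spread of the carbidopa pair therefore also enters the p-values of comparisons without carbidopa. The SE of a log2 fold change was derived from the F statistic. CPM used TMM-scaled library totals, and RPKM divided by the length of the principal transcript. Positions are from GENCODE M21 (GRCm38, the assembly of mm10), which held 50354 of 50578 gene identifiers, and start windows from RefSeq.

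Named genes were all members, with statistics for those called in any of 6 comparisons, and up to 3 members of each other list with the smallest p. Some further genes of these lists are named for their reads or levels. The sources used here name no molecular identifiers, so PCR copies may be counted more than once. Intervals of log2 fold changes were built from the edgeR SE and include the spread between libraries. For members with few reads, the ratio of reads pooled over the libraries of a group, per scaled total, has an exact 95% binomial interval. Only that interval reflects counting error alone. The edgeR step was also run on simulated data that gave every group the same spread per gene and changed genes under carbidopa only. In the real data the carbidopa pair varied more than the others, so that run cannot show how often calls here are wrong. Alternatives were DESeq2 1.42.0, RLE size factors, no filter, a minimum of 10 counts per library, fits restricted to the groups being compared, a replicate block, and omission of each library in turn.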

Additional observations from a re-analysis of the deposited data

How the results depend on the processing

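Of 51 calls of members against MEF, 40 held under each of the 14 alternatives that tested them, the exceptions being calls of Col11a2, Col15a1, Col16a1, Col19a1 and Col25a1. No called value changed sign, and 46 values not called in either fit did. The number that fell against MEF was 11 to 16 for carbidopa, 11 to 16 for LY-364947 and 11 to 19 for CHIR-99021 over the settings that kept all libraries. The lowest came with the filter of at least 10 counts, which tests only 16 members. That filter also left 0 members higher under carbidopa, 0 under LY-364947 and 0 under CHIR-99021, since Col11a2 was then not tested. Without a filter, 2 members were higher under carbidopa and 2 under LY-364947, 5 higher under CHIR-99021 against carbidopa, 5 higher under CHIR-99021 against LY-364947 and 2 higher under LY-364947 against carbidopa. Of the 26825 genes then tested, 6421, 5132, 2942, 2863 and 329 were called in these comparisons, in either direction. With the filter these numbers were 5717, 4694, 2227, 2143 and 2 of 15154. Fitting the compared groups alone gave 3 higher under LY-364947, 1 lower under CHIR-99021 against carbidopa and 7 lower under CHIR-99021 against LY-364947. That fit called 7606 of 14430 genes for CHIR-99021 against MEF and 6946 of 14676 for LY-364947 against MEF, in either direction. Between compounds it called 1027 of 14410 for CHIR-99021 against carbidopa and 3673 of 14467 for CHIR-99021 against LY-364947. The fit of all libraries gave 5878, 4694, 2227 and 2143 of 15154. Member counts are to be read beside these shifts. DESeq2 gave 1 higher under LY-364947 against carbidopa. Apart from the filter, the cause of these differences was not tested.

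With each library left out in turn, counts were 0 to 1 higher and 13 to 16 lower under carbidopa, 0 to 2 higher and 13 to 16 lower under LY-364947, and 1 to 1 higher and 13 to 19 lower under CHIR-99021. Between compounds they were 2 to 5 higher and 1 to 4 lower for CHIR-99021 against carbidopa, 1 to 3 higher and 2 to 7 lower for CHIR-99021 against LY-364947, and 0 to 3 higher and 0 to 0 lower for LY-364947 against carbidopa. The 5 higher and 4 lower against carbidopa came without carbidopa replicate 1, the 7 lower against LY-364947 without either carbidopa library, and the 3 higher without carbidopa replicate 2. A group with 1 library left is assumed to vary like the others. The number of all genes called also changed between these settings, so the counts do not describe the members alone.

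The correlation of replicate deviations between groups ran from −0.161 (carbidopa and LY-364947) to 0.128 (carbidopa and CHIR-99021). With 2 libraries a group, such values cannot tell whether replicate numbers pair the samples. With a replicate block, counts of members were 1 higher and 16 lower with each compound against MEF, 3 and 2 for CHIR-99021 against carbidopa, 3 and 4 for CHIR-99021 against LY-364947, and 0 and 0 for LY-364947 against carbidopa, as without it. Depth limits the 8 untested members and those with few reads.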
